A study of Homo sapiens with 2 samples.

Results

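The nuclear pore complex is the channel through the nuclear envelope, and the karyopherins are the receptors that carry protein and RNA cargo through it. The genes described here were chosen by symbol: protein-coding genes named NUP, XPO, IPO, KPNA, KPNB or TNPO followed by a number, on probe sets that carry a single gene symbol. This gave 45 of 19775 genes with a single symbol, 23 of them nuclear pore genes and 22 transport receptor genes. Each gene was read from its brightest probe set, and 43 of the 45 (22 pore genes and 21 receptor genes) reached the signal filter, against 12561 genes on the whole array. The filter is a signal of 50.4, the median over all probe sets other than controls. Those under it were NUP210L, with signals of 21.3 with JMJD1A/JMJD1B siRNA and 10.02 with control siRNA, and IPO11, at a signal of 1.70 with JMJD1A/JMJD1B siRNA and 11.4 with control siRNA.

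The cells were HCT116, an established human colorectal carcinoma line. A sample given siRNAs against both JMJD1A and JMJD1B was compared with a sample given a control siRNA, 2 days after transfection with the lipid reagent RNAimax, both grown in DMEM with serum. The siRNA sequences are not stated in the labels. JMJD1A and JMJD1B, also called KDM3A and KDM3B, are histone H3 lysine 9 demethylases. With 1 array per group no replicate spread, test or p-value can be given, and precision is limited by the number of arrays. A lower signal can come from fewer cells expressing a gene or from less RNA per cell, and these cannot be told apart here. As the only measure of technical scatter, the SD per probe set was 0.54. It compares the log2 ratios of each gene's 2 brightest probe sets, over the 6192 genes with 2 or more above the filter. Further, dimmer probe sets did not enter it. That figure is about probes within this pair of arrays and leaves out the spread between samples.

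The label check was partial. KDM3B read 496 with JMJD1A/JMJD1B siRNA and 3031 with control siRNA, whereas KDM3A read 3323 with JMJD1A/JMJD1B siRNA and 3884 with control siRNA, a log2 ratio of -0.22. All 10 listed epithelial markers were above the filter, against 2 of 9 fibroblast, 3 of 9 leukocyte and 1 of 7 endothelial markers. Summed signals of the epithelial markers were 134782 with JMJD1A/JMJD1B siRNA and 85361.5 with control siRNA, with log2 ratios of single markers from -0.99 to 1.37. Summed signals of the measured fibroblast markers were 698 with JMJD1A/JMJD1B siRNA and 363 with control siRNA, and those of the leukocyte markers 241 with JMJD1A/JMJD1B siRNA and 196 with control siRNA. PECAM1, the endothelial marker, read 158 with JMJD1A/JMJD1B siRNA and 116 with control siRNA. COL1A2, COL3A1, PTPRC, CD14, VWF and CDH5 were not among the measured genes. The part of these markers in the results was not tested. On the hybridization control probe sets, which report transcripts added at the hybridization step, the array of the JMJD1A/JMJD1B siRNA sample read higher in 18 of 18, with a median log2 ratio of 0.61. The ratios below keep the deposited scaling, in which the median ratio of all measured genes was 0.04. With the arrays set level on those controls that median would be -0.57, and every ratio would be lower by 0.61.

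The pore is built from rings of repeated subcomplexes. The Y complex forms the outer rings, the inner ring and membrane proteins anchor the structure, a central channel of phenylalanine-glycine repeat proteins forms the barrier, and filaments on the cytoplasmic side and a basket on the nuclear side handle arriving and departing cargo. Importins bind cargo in the cytoplasm and release it when they meet Ran-GTP in the nucleus, whereas exportins bind cargo together with Ran-GTP and release it after GTP hydrolysis in the cytoplasm. Importin alpha proteins do not cross alone. They recognise classical nuclear localisation signals and link that cargo to importin beta 1.

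Most pore and receptor genes had a lower signal with JMJD1A/JMJD1B siRNA, by modest amounts. Of the 43 measured genes, 35 had a log2 ratio below 0 and 8 above, where 47.9% of all genes measured lay below 0. At least 2-fold lower were 6 genes (14.0%), against a background of 8.53% of all measured genes. Past 2-fold in the higher direction were 2 genes, against a background of 8.91%. At 1.5-fold 16 genes were lower and 2 higher, where 19.5% and 21.7% of all genes were. At 3-fold 1 was lower and 1 higher, where 2.26% and 2.28% of all genes were. The median log2 ratio was -0.38 over the 22 pore genes and -0.50 over the 21 receptor genes, against 0.04 over all measured genes. The lower genes past 2-fold were NUP88, IPO7, XPO4, NUP50, XPO5 and TNPO2, and the higher ones NUP58 and KPNA5. With the arrays level on the hybridization controls 27 genes would be at least 2-fold lower and 1 at least 2-fold higher, NUP58, against 27.7% and 2.15% of all genes on that scale. By size, 17 of the 43 were lower by more than the probe-set SD, where 21.2% of all genes were, 2 were higher by more than it, where 23.7% were, and 24 lay within it.

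**Figure D1:**
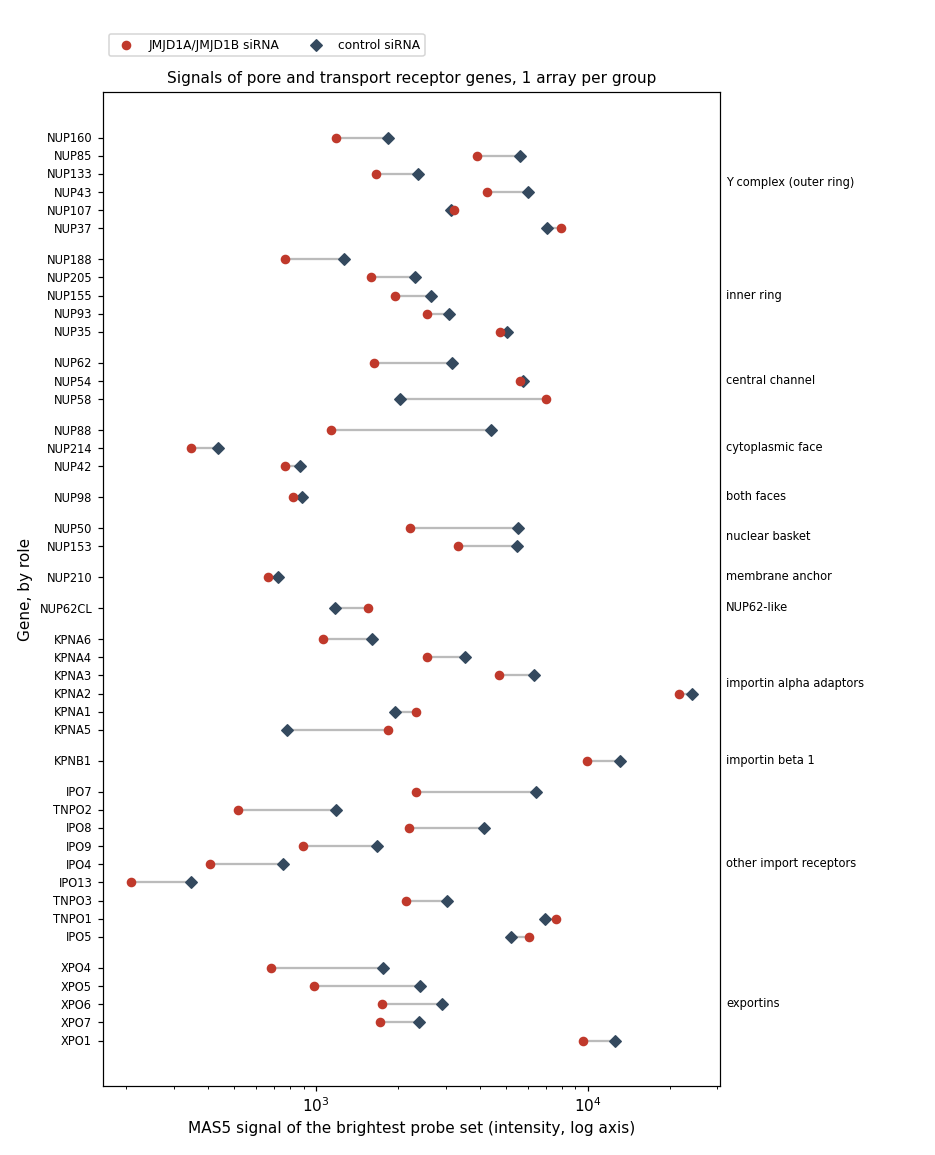
Signal of each gene's brightest probe set on a log intensity axis, with the JMJD1A/JMJD1B siRNA array as circles and the control siRNA array as diamonds, 1 array each, genes ordered by role. In 35 of 43 genes the circle lies left of the diamond, with the widest gaps for NUP88 (1131 with JMJD1A/JMJD1B siRNA, 4403 with control siRNA) and, in the other direction, NUP58 (7015 with JMJD1A/JMJD1B siRNA, 2039 with control siRNA).

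Promoter sequences are shown for 3 of the lower genes, 1 from each of the cytoplasmic face, the nuclear basket and the import receptors. These genes had the lowest ratios of their classes, as did XPO4 among the exportins, which is not shown. Each runs from 250 bases before to 50 bases after the annotated start and is written 5′ to 3′ on the gene's strand, from RefSeq on GRCh38.p14. They are NUP88 at chr17:5419613-5419912 (minus strand), NUP50 at chr22:45163675-45163974 (plus strand) and IPO7 at chr11:9384402-9384701 (plus strand). Capitals mark matches, on either strand, to CCAAT and to the E-box CACGTG.
NUP88: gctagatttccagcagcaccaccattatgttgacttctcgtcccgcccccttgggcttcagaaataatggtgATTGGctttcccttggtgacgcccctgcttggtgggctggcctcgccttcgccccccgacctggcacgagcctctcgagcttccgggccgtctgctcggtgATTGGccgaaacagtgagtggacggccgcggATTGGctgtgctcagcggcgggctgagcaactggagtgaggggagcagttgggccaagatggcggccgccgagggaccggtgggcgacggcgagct
NUP50: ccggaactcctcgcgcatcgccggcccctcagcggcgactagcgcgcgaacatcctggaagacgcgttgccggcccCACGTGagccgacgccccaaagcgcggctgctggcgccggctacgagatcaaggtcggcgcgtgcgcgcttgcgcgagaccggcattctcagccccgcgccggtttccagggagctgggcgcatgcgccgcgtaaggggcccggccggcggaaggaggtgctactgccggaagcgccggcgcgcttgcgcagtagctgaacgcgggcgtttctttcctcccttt
IPO7: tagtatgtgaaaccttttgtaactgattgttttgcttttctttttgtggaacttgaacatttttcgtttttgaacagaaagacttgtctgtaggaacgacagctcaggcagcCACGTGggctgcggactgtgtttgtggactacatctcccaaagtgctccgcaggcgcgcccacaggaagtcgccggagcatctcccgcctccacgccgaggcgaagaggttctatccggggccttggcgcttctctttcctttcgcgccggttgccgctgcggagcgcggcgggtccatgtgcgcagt
The NUP88 window held CCAAT 3 times, each on the opposite strand and so printed as its reverse complement. NUP50 and IPO7 each held an E-box. A promoter was found for 38 of the 43 measured genes. CCAAT occurred in 20 of these 38 (52.6%), against 35.7% of all 27305 promoters and 36.6% of the 10196 that belong to measured genes. The E-box CACGTG occurred in 6 of 38 (15.8%), against 7.43% of all promoters and 10.3% of those of measured genes. Of the 6 lower genes, 3 held an E-box (IPO7, NUP50 and TNPO2), 3 held CCAAT (NUP88, TNPO2 and XPO4) and XPO5 held neither. The letters TTTGGCGC or TTTCCCGC of an E2F motif were found in 1 promoter (2.63%), that of NUP155, against 2.31% of all and 3.63% of those of measured genes. ACGTG, the core of the HIF motif and a part of the E-box, occurred in 11 of 38 (28.9%), against 21.6% of all promoters and 26.7% of those of measured genes. The NUP58 window held ACGTG 2 times, counting both strands, and none of the other 3 motifs. A match is a description of the letters in the window and not evidence of binding. The median GC content was 63.2% in the promoters of these genes and 58.3% in all promoters. No median is given for the promoters of measured genes alone.

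In the outer ring, 4 of the 6 measured genes of the Y complex were lower by similar amounts and the other two were level or slightly higher. NUP160 read 1185 with JMJD1A/JMJD1B siRNA and 1837 with control siRNA, a log2 ratio of -0.63. NUP85, NUP133 and NUP43 were near it, at -0.53, -0.51 and -0.50. NUP107 and NUP37 were level to slightly higher, at 0.03 and 0.16 (3209 and 7952 with JMJD1A/JMJD1B siRNA, 3145 and 7101 with control siRNA), and on the hybridization-control scale both would be below 0, at -0.58 for NUP107 and -0.45 for NUP37. None of the 6 differed 2-fold by its brightest probe set, and the class median was -0.51. Dimmer probe sets did not always follow the brightest. Those of NUP133 and NUP43 were level, at 0.07 (116 with JMJD1A/JMJD1B siRNA and 110.1 with control siRNA) and 0.00013 (184 on each array), whereas those of NUP160 and NUP37 read further down. For NUP160 these gave -1.25 and -1.45, so that the mean of its 3 probe sets was -1.11. For NUP37 a second probe set read 84.0 with JMJD1A/JMJD1B siRNA and 516 with control siRNA, a ratio of -2.62 against 0.16 for the brightest.

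The inner ring scaffold ranged from nearly level to moderately lower, always by less than 2-fold. All 5 genes had a ratio below 0, with a median of -0.45, and 3 of them (NUP155, NUP93 and NUP35) lay within the probe-set SD. NUP188 was lowest, at a signal of 770 with JMJD1A/JMJD1B siRNA and 1265 with control siRNA, a ratio of -0.72. NUP205, its structural relative, read 1593 with JMJD1A/JMJD1B siRNA and 2310.5 with control siRNA, a ratio of -0.54, while its second probe set was level at -0.03 (167 with JMJD1A/JMJD1B siRNA and 170 with control siRNA). NUP155 stood at -0.45 and NUP93, which links the ring to the central channel, at -0.26. NUP35, a membrane-binding member of the ring, was nearly level, at a signal of 4755 with JMJD1A/JMJD1B siRNA and 5041 with control siRNA, a ratio of -0.08.

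The central channel trio split. NUP62, NUP58 and NUP54 form 1 coiled-coil subcomplex with repeat domains that fill the channel. NUP62 read 1632 with JMJD1A/JMJD1B siRNA and 3167 with control siRNA, a ratio of -0.96 and just short of 2-fold, and its second probe set gave -0.90. NUP54 was level, at a signal of 5623 with JMJD1A/JMJD1B siRNA and 5777 with control siRNA. NUP58 read 7015 with JMJD1A/JMJD1B siRNA and 2039 with control siRNA, 3.44-fold higher. That value rested on 1 probe set. The other 3 measured NUP58 probe sets had ratios of 0.13, -0.26 and 0.48, and the mean of all 4 was 0.53, under the 2-fold mark. The probe-set SD is for single probe sets and is no measure of the scatter of such a mean. On the hybridization-control scale the brightest probe set would stand at 1.17. The related gene NUP62CL, named for its likeness to the end of NUP62, read 1557 with JMJD1A/JMJD1B siRNA and 1175 with control siRNA, a ratio of 0.41 that would be -0.20 on the hybridization-control scale.

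On the cytoplasmic face, NUP88 had the lowest ratio of all 43 genes. It read 1131 with JMJD1A/JMJD1B siRNA and 4403 with control siRNA, 3.89-fold lower, on the only NUP88 probe set above the filter. NUP88 forms a subcomplex with NUP214, a repeat nucleoporin that binds the exportin XPO1. The brightest NUP214 probe set read 347 with JMJD1A/JMJD1B siRNA and 434 with control siRNA, a ratio of -0.32, whereas its other measured probe sets were much lower. The first of these read 87.99 with JMJD1A/JMJD1B siRNA and 420.0 with control siRNA, 4.77-fold lower. The second read 18.3 with JMJD1A/JMJD1B siRNA and 141 with control siRNA, at least 2.80-fold lower when the dim signal is set to the filter. NUP42, a partner of the mRNA export factor GLE1, was little changed at -0.19. NUP98, found on both faces and also the source of the Y complex protein NUP96 by cleavage of a shared precursor, had probe sets at -0.11, -0.46 and -1.46. The brightest of these read 825 with JMJD1A/JMJD1B siRNA and 890.3 with control siRNA.

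Both nuclear basket genes chosen by symbol were lower on their brightest probe sets. TPR, a basket gene outside the naming rule, stood at -0.54 and was named after its value was seen. NUP50, which helps release cargo from importin alpha, read 2219 with JMJD1A/JMJD1B siRNA and 5514 with control siRNA, 2.48-fold lower. Its 4 measured probe sets all lay below 0, between -1.73 and -0.34, and 3 of them were at least 2-fold lower. NUP153, which tethers the basket to the pore, read 3327 with JMJD1A/JMJD1B siRNA and 5473 with control siRNA, a ratio of -0.72, while a dim second probe set gave 0.42 (110.2 with JMJD1A/JMJD1B siRNA and 82.2 with control siRNA). The membrane anchor NUP210 was close to level. It read 662 with JMJD1A/JMJD1B siRNA and 722 with control siRNA, and its 5 probe sets lay between -0.40 and 0.29.

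**Figure D2:**
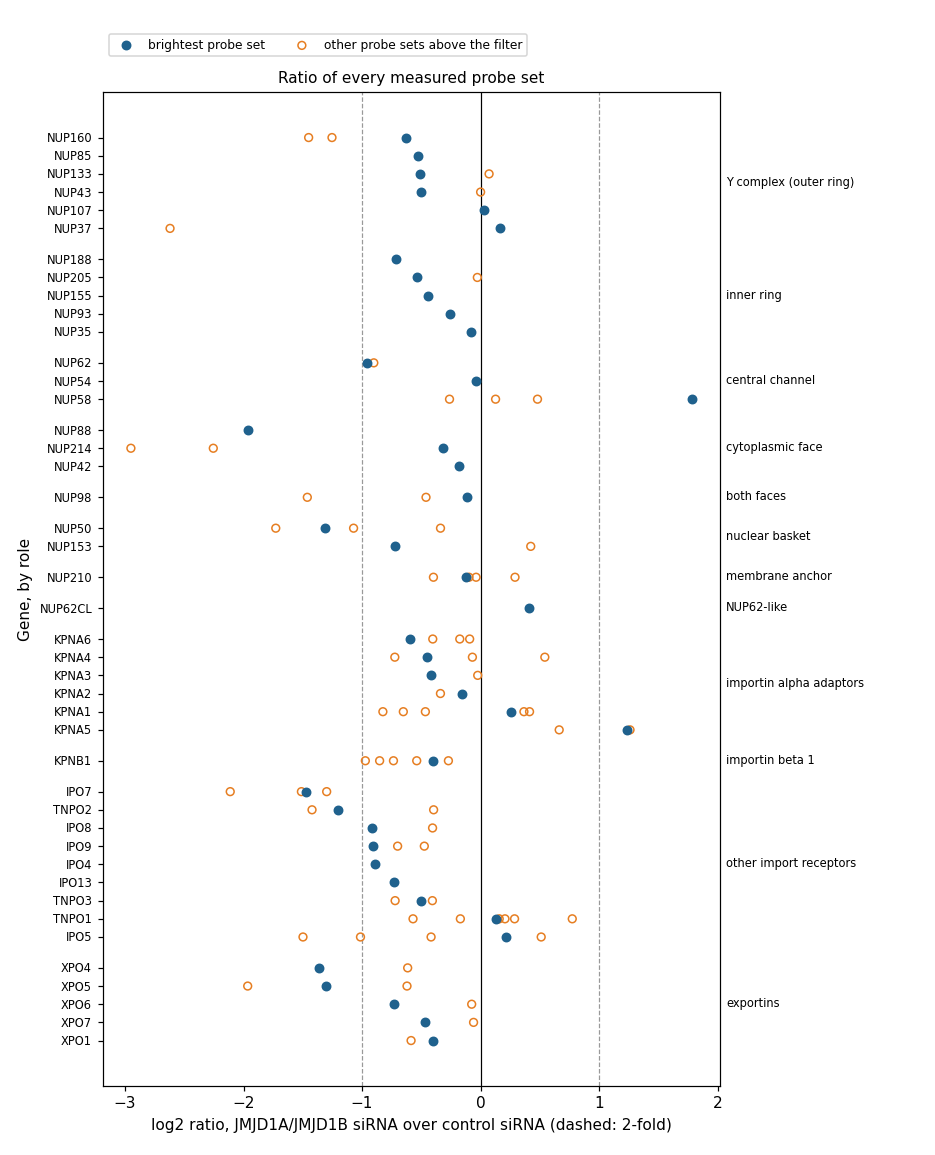
Log2 ratio, JMJD1A/JMJD1B siRNA over control siRNA, of all 111 probe sets above the filter for the 43 genes, with filled points for each gene's brightest probe set and open points for the others; dashed lines mark 2-fold. IPO7, KPNB1 and NUP50 keep all their points left of 0, whereas NUP58, NUP37, NUP214 and IPO5 spread widely.

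Among the importin alpha adaptors, KPNA5 stood apart. KPNA5 read 1838 with JMJD1A/JMJD1B siRNA and 779.7 with control siRNA, 2.36-fold higher, and its 3 probe sets gave 1.24, 1.26 and 0.66. Among 31 genes that had at least 2 measured probe sets, it alone had all of them above 0. KPNA5 would remain above 0, at 0.63, on the hybridization-control scale. KPNA1 and KPNA6 belong to the same subfamily. KPNA6 read 1059 with JMJD1A/JMJD1B siRNA and 1603 with control siRNA, a ratio of -0.60, with all 4 probe sets below 0. KPNA1 read 2327 with JMJD1A/JMJD1B siRNA and 1953 with control siRNA, a ratio of 0.25, but its 6 probe sets divided evenly, 3 below 0 and 3 above, and the ratio would be -0.36 on the hybridization-control scale. KPNA3 and KPNA4, a second subfamily, stood at -0.42 and -0.46 on their brightest probe sets. The second KPNA3 probe set was level at -0.02. Of the 4 measured KPNA4 probe sets 3 were below 0, with a range from -0.72 to 0.54 and a mean of -0.18. The highest read 1091 with JMJD1A/JMJD1B siRNA and 750 with control siRNA. KPNA2, the adaptor typical of proliferating cells, read 21717 with JMJD1A/JMJD1B siRNA and 24150.3 with control siRNA, a ratio of -0.15. That ratio depended on the scaling and was -0.63 under quantile normalization and -0.53 under loess. KPNB1, the importin beta 1 that carries all of these adaptors, read 9967 with JMJD1A/JMJD1B siRNA and 13129.6 with control siRNA, a ratio of -0.40 that was -0.63 under quantile normalization and -0.65 under loess. All 6 KPNB1 probe sets lay below 0, between -0.97 and -0.27, and none was 2-fold lower.

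The import receptors that bind cargo directly were lower as a class, with a median of -0.89 over 9 genes. IPO7, an import receptor for ribosomal proteins and histone H1, read 2321 with JMJD1A/JMJD1B siRNA and 6456 with control siRNA, 2.78-fold lower. All 4 of its probe sets were at least 2-fold lower, from -2.11 to -1.30. Its closest relative IPO8 read 2201 with JMJD1A/JMJD1B siRNA and 4145 with control siRNA, a ratio of -0.91. TNPO2 read 515 with JMJD1A/JMJD1B siRNA and 1185 with control siRNA, 2.30-fold lower, with probe sets at -1.20, -1.42 and -0.40. Its relative TNPO1, the receptor for hnRNP proteins, was level on its brightest probe set, at a signal of 7618 with JMJD1A/JMJD1B siRNA and 6969 with control siRNA and a ratio of 0.13, and 5 of its 7 measured probe sets lay above 0. On the hybridization-control scale TNPO1 would be at -0.48. IPO9 and IPO4, which carry histones among other cargo, stood at -0.90 and -0.89, IPO13 at -0.73 and TNPO3, the receptor for SR splicing factors, at -0.50. IPO5 was inconsistent. Its brightest probe set read 6074 with JMJD1A/JMJD1B siRNA and 5225 with control siRNA, a ratio of 0.22 that would be -0.39 on the hybridization-control scale, but 3 of its 5 probe sets were below 0 and 2 of those at least 2-fold lower, the lowest at -1.50 (374 with JMJD1A/JMJD1B siRNA and 1055 with control siRNA).

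All 5 exportins chosen by symbol were lower on their brightest probe sets, with a median of -0.73. XPO4 read 684 with JMJD1A/JMJD1B siRNA and 1755 with control siRNA, 2.57-fold lower, and its second probe set gave -0.62. XPO5, which exports precursor microRNAs, read 981 with JMJD1A/JMJD1B siRNA and 2420.4 with control siRNA, 2.47-fold lower, with its 3 probe sets at -1.30, -0.62 and -1.96. XPO6, the exportin for actin and profilin, read 1749.6 with JMJD1A/JMJD1B siRNA and 2897 with control siRNA, a ratio of -0.73, although its second probe set gave -0.08. XPO7 stood at -0.47, with its second measured probe set nearly level at -0.06. XPO1, the exportin for leucine-rich export signals, read 9561 with JMJD1A/JMJD1B siRNA and 12613 with control siRNA, a ratio of -0.40 that was -0.63 under quantile normalization and -0.64 under loess.

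Between related genes measured on the same arrays, a difference in ratio does not depend on a single scale factor per array. It can still depend on scaling that varies with signal. The SD of such a difference, from the probe-set SD, was 0.76. Of 9 listed pairs with both genes measured, 6 differed by more than this and 3 by less, where 46.5% of all pairs of measured genes differed by more. KPNA5 against KPNA6 differed most, by 1.84 on the log2 scale, followed by NUP62 against NUP62CL at -1.36 and TNPO1 against TNPO2 at 1.33. XPO1 against XPO5 differed by 0.90, KPNA1 against KPNA6 by 0.85 and KPNA1 against KPNA5 by -0.98. Under quantile normalization XPO1 stood at -0.63 and XPO5 at -1.21, and under loess at -0.64 and -1.24. XPO1 against XPO5 then lay within the SD of 0.76, while the other pairs beyond it stayed beyond it. IPO7 against IPO8 differed by -0.56, NUP205 against NUP188 by 0.18 and KPNA3 against KPNA4 by 0.03, all within that SD. The pairs of KPNA1, KPNA5 and KPNA6 share their genes and are not independent. On the means of probe sets 6 pairs lay beyond 0.76, but that SD is for single probe sets. The share of all gene pairs was not computed for means. On these means KPNA1 against KPNA6 shrank to 0.17 and IPO7 against IPO8 grew to -0.94. Related genes can share matches to a probe set, which this design does not resolve.

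**Figure D3:**
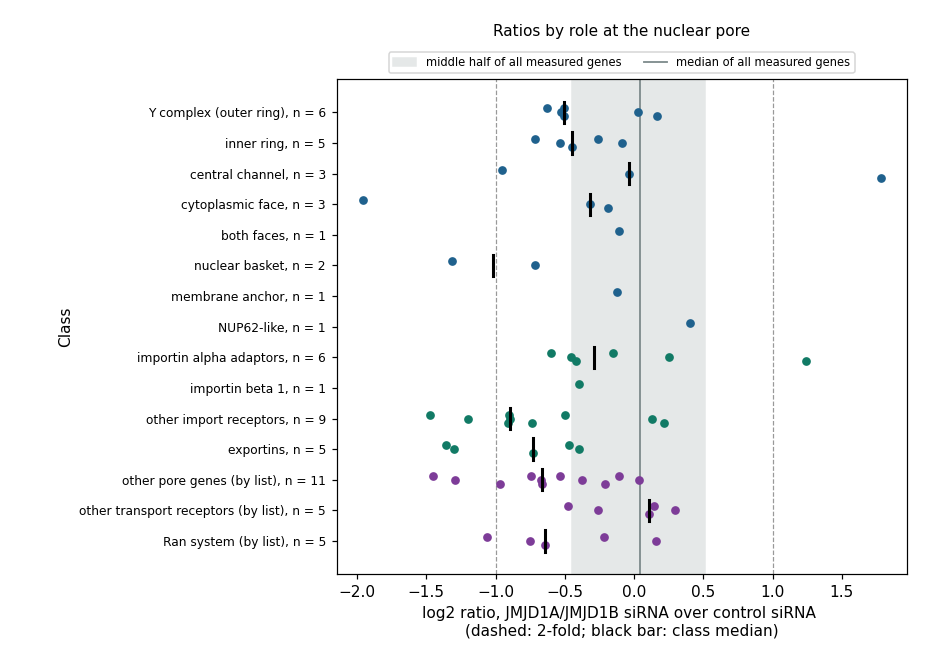
Log2 ratio of each gene by role, with pore classes in blue, receptor classes in green and listed genes outside the naming rule in purple; black bars are class medians, the grey band is the middle 50% of all measured genes and dashed lines mark 2-fold. The medians of the nuclear basket (-1.02, 2 genes), the other import receptors (-0.89), exportins (-0.73), other pore genes (-0.66), the Ran system (-0.64) and the Y complex (-0.51) lie left of the band.

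Genes of the same pathway that the naming rule leaves out were read from a list of 25, of which 21 were measured. At least 2-fold lower were 3 of these 21 (14.3%) and none at least 2-fold higher, against 8.53% and 8.91% of all measured genes. Below 0 were 16 (76.2%), against 47.9%, and the median was -0.48. The 11 pore genes among them had a median of -0.66, with 10 below 0. SEH1L, a Y complex subunit, read 2774 with JMJD1A/JMJD1B siRNA and 7578 with control siRNA, 2.73-fold lower, although its second probe set gave -0.32. RANBP2, the main protein of the cytoplasmic filaments, read 2023 with JMJD1A/JMJD1B siRNA and 4966 with control siRNA, 2.45-fold lower, with 3 of its 4 probe sets at least 2-fold lower. GLE1 was just short of 2-fold at -0.97 on its brightest probe set. That was the lowest of its 3 measured probe sets, which reached -0.10 and had a mean of -0.50. In the Ran system, RCC1, the chromatin-bound exchange factor that makes Ran-GTP, read 2779 with JMJD1A/JMJD1B siRNA and 5803 with control siRNA, 2.09-fold lower, and its second probe set gave -0.93. RAN itself was level on its brightest probe set, at 0.16, with the second at -1.40. The 5 other transport receptors had a median of 0.10. CSE1L, which returns importin alpha to the cytoplasm, stood at -0.48, with 4 probe sets between -1.15 and 0.76, 3 of them below 0.

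Probe sets of a gene agreed in sign for most but not all genes. Of the 31 genes that had at least 2, 20 had all of them below 0, KPNA5 had all above 0 and 10 had both signs. Of all 6192 genes with at least 2, 31.3% had all below 0, 28.2% all above 0 and 40.5% both signs. Among the 31 genes chosen by symbol, the SD per probe set, again from each gene's 2 brightest, was 0.57. Over the 111 measured probe sets, 87 (78.4%) lay below 0, 21 (18.9%) were at least 2-fold lower and 3 (2.70%) at least 2-fold higher. Over all 23360 measured probe sets these shares were 50.3%, 10.4% and 8.88%. When probe sets were averaged per gene, 8 genes (18.6%) were at least 2-fold lower and 1, KPNA5 (2.33%), at least 2-fold higher, against 7.84% and 7.79% of all genes. That set gained NUP160, NUP214 and NUP37 and lost XPO4, which stood at -0.99, just short of 2-fold.

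**Figure D4:**
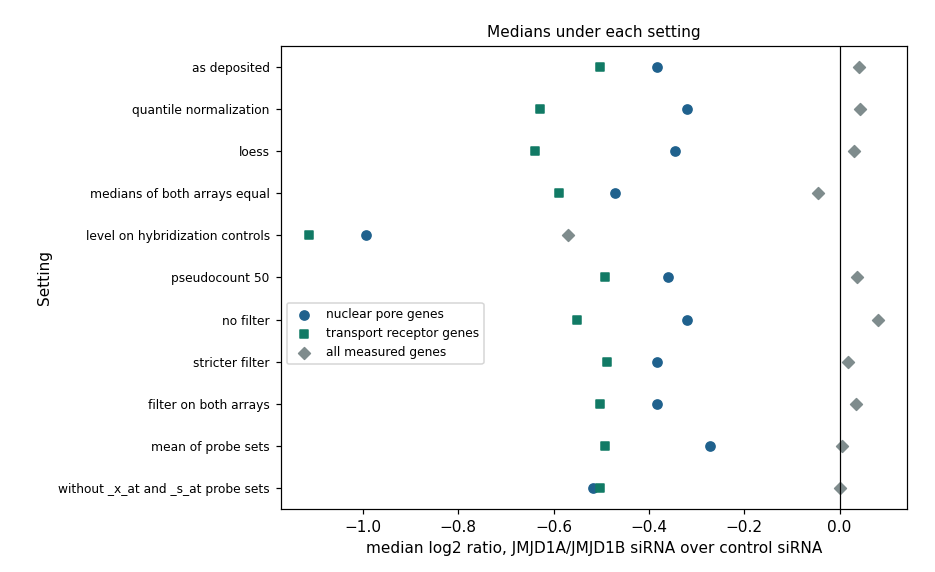
Median log2 ratio of the pore genes (circles), the receptor genes (squares) and all measured genes (diamonds) under the deposited scaling and 10 other settings. Pore and receptor medians lie below that of all genes in each of these settings, and all 3 move down together when the arrays are set level on the hybridization controls (-0.99, -1.11 and -0.57).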

How the data were processed

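Total RNA of HCT116 cells was measured on 2 single-channel oligonucleotide arrays, 1 per group, labelled from 0.5 ug of RNA per the labels' protocols. The values the authors deposited are linear signal intensity, 1 per array for 54675 probe sets. The submitters' processing notes name MAS5, and its version and settings are not stated there.

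Ratios were taken on the log2 scale without a pseudocount, as JMJD1A/JMJD1B siRNA minus control siRNA. The brightest probe set by mean log2 signal stood for a gene, which was kept if that mean reached the median of 54613 non-control probe sets (50.4). Symbols came from the platform annotation. By RefSeq biotype, 8 probe sets of 5 antisense, divergent or pseudogene symbols were left out, as were 4 that carry several symbols. The genes, roles, paralogue pairs and lists were chosen with earlier results of these data known. Values are given for every measured gene chosen by symbol, and of the other pathway genes for the 4 with the largest ratio. CSE1L, RAN and TPR were named after their values were seen. In all 12 alternatives were run. Python 3.11.15, numpy 2.4.6, pandas 2.3.3, statsmodels 0.14.6 (loess) and matplotlib 3.10.9 were used.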

Additional observations from a re-analysis of the deposited data

Results flagged for a closer look

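In data outside the gene comparison, all 18 hybridization control probe sets read higher with JMJD1A/JMJD1B siRNA than with control siRNA, with a median log2 ratio of 0.6107 and a range of 0.40 to 0.71. The probe set of NUP210P1, a transcribed pseudogene left out by the rule, read 65.95 after JMJD1A/JMJD1B siRNA and 5.87 after control siRNA, the second value being far under the signal filter of 50.4.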

How the results depend on the processing

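No paired analysis was possible because each group held 1 array. With the arrays level on the hybridization controls, 27 genes were at least 2-fold lower and 1 at least 2-fold higher, against 27.7% and 2.15% of all genes. The medians were then -0.99 for pore genes, -1.11 for receptor genes and -0.57 for all measured genes. By the mean of probe sets 8 genes were lower and 1 higher, against 7.84% and 7.79% of all genes. At 1.5-fold 16 genes were lower and 2 higher, against 19.5% and 21.7% of all genes. At 3-fold 1 was lower and 1 higher, against 2.26% and 2.28%. Under quantile normalization, loess, the pseudocount, the filter on both arrays and the stricter filter, the same 6 genes were at least 2-fold lower. In that order, 7.95%, 8.22%, 6.51%, 8.03% and 8.71% of all genes were. With no filter 7 of 45 genes (15.6%) were lower, adding IPO11, against 12.7% of all genes, and 3 (6.67%) higher, adding NUP210L, against 16.1%. With equal array medians 8 genes (18.6%) were lower, adding IPO8 and NUP62, against 10.2% of all genes. Without _x_at and _s_at probe sets 33 genes were measured and 5 (15.2%) were lower, against 10.6% of all genes, NUP214 and 4 shared with the deposited setting, since the only measured NUP88 probe set and those of XPO5 were left out. The 8 genes past 2-fold in the deposited setting kept their sign wherever they were measured under the 10 settings that change the ratios or the genes measured, which leaves out NUP88 and XPO5 without _x_at and _s_at probe sets. These genes were chosen for ratios past 2-fold. The settings that change only the filter, or shift the arrays by the constants used here, could not have changed their sign. NUP37, at 0.16 in the deposited setting, was -1.23 by the mean of probe sets and -0.01 under loess. Moves of more than the probe-set SD occurred in all 43 genes with the arrays level on the hybridization controls, in 6 by the mean of probe sets and in 2 without _x_at and _s_at probe sets. Detection calls were not used here, so the signal filter stands in for signal over background.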

Other observations

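IPO11, the import receptor for ubiquitin-conjugating enzymes, has a single-symbol probe set under the filter, but 2 bright probe sets shared with the read-through gene IPO11-LRRC70 were lower, and they were looked at after the other values had been seen. They read 802 and 297 after JMJD1A/JMJD1B siRNA, against 1876 and 845 after control siRNA, 2.34-fold and 2.85-fold lower. Signals of IPO11 and of the read-through transcript cannot be told apart on these probe sets. The divergent non-coding transcript NUP50-DT, next to the lower NUP50, read 84.2 after JMJD1A/JMJD1B siRNA and 143.6 after control siRNA, a log2 ratio of -0.77. The pseudogene IPO5P1 read 92.6 after JMJD1A/JMJD1B siRNA and 179.8 after control siRNA on its brightest probe set, a ratio of -0.96.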
